A study of Rattus norvegicus with 6 samples.

Results

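The genes described here are the subunits of the epithelial sodium channel (Scnn1a, Scnn1b and Scnn1g) and 4 genes of the aldosterone pathway that controls it (Nr3c2, Hsd11b2, Nedd4l and Prss8). They were chosen by name, and their probes were found through the RefSeq accession of each probe on the array. Probes were matched for 6 of the 7 genes (of 15645 genes matched in all), with 10 of the 61537 probes that were not controls, and 9 of these probes, covering the same 6 genes, passed the filter on dim signals. No probe was matched to Nedd4l, which was not analysed here.

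Renal cortex was taken from 6 male Sprague-Dawley rats, bought at 5 weeks of age and kept on a basal diet with 12 hours of light a day. For 4 weeks, 3 rats received N,N'-dinitrosopentamethylenetetramine (DNPT, an N-nitroso compound) at a daily dose of 200 mg/kg, and 3 vehicle rats received corn oil. The design names 3 biological replicates per group, and each rat gave 1 array of a 1-colour Agilent design. The groups were compared to ask how dosing with DNPT alters gene expression in this tissue.

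The epithelial sodium channel (ENaC) is the sodium entry path in the apical membrane of the late distal convoluted tubule, connecting tubule and collecting duct, and is built from an alpha, a beta and a gamma subunit. Aldosterone binds the mineralocorticoid receptor, encoded by Nr3c2, and 11-beta-hydroxysteroid dehydrogenase type 2, encoded by Hsd11b2, inactivates corticosterone so that it does not occupy that receptor. The ubiquitin ligase Nedd4l removes the channel from the membrane, the kinase Sgk1 inhibits Nedd4l, and serine proteases such as prostasin, encoded by Prss8, activate the channel at the cell surface.

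Signals are given on a log2 scale on which 0 is the array's 75th percentile, differences are DNPT minus vehicle on that scale, and errors of differences are the standard error (SE) of limma. Between 42116 and 45167 probes per array were well above background, with fewer on each DNPT array than on each vehicle array. With 3 arrays a group, precision is limited by their number. Slide 1, scanned on day 1, carried all 3 vehicle rats together with DNPT replicate 1, and slide 2, scanned on day 2, carried the other DNPT rats. Slide 2 held no vehicle sample, so within a slide only DNPT replicate 1 can be set against the vehicle rats, and its values are given beside the group values.

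The genes for the beta and gamma subunits lie next to each other on chromosome 1 on the same strand, and both were higher in DNPT rats. Their promoter windows, 250 bases before to 50 bases after the transcription start in the RefSeq table of build GRCr8, are shown because these 2 neighbours differed together. Capitals mark matches to the GC box, searched as GGGCGG and CCGCCC for both strands.
Scnn1b, chr1:185861126-185861425, plus strand: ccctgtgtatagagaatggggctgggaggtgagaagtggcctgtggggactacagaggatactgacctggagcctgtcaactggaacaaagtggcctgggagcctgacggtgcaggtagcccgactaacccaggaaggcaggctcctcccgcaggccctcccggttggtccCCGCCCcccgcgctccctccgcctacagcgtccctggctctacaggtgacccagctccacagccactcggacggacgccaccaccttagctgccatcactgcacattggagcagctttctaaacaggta
Scnn1g, chr1:185735975-185736274, plus strand: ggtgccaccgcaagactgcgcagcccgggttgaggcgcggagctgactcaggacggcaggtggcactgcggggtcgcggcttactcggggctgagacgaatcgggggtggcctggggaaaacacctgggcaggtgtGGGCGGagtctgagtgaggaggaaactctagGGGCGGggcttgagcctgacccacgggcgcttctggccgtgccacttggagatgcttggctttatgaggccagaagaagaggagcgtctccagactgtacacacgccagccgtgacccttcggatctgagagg
The Scnn1b window held 1 GC box, starting 79 bases before the transcription start, and the Scnn1g window held 2, at 114 and 83 bases before it. A GC box was present in 33.1% of the 33469 promoter windows of the table. The windows were rich in G and C, at 62.7% for Scnn1b and 65.0% for Scnn1g against a median of 51.7% over all windows. Neither window held the half-site of the steroid receptor element (AGAACA or TGTTCT, present in 20.7% of all windows), the E-box CACGTG (6.42%), the D-box (TTATGTAA or TTACATAA, 0.893%) or TATAAA on either strand (14.2%). A match is a match of letters in this window and no measurement of binding.

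Of the 6 genes measured, 5 were higher in DNPT rats with no overlap between the groups, and Nr3c2 was the exception. Of the 34915 features tested, 20.2% had no overlap between the groups, 11.9% with DNPT higher. With limma, 4 of the 6 genes (Scnn1b, Scnn1g, Hsd11b2 and Prss8) were higher at an unadjusted p under 0.05 and 0 were lower, where 5.95% of all features were higher and 6.16% lower at that threshold. After Benjamini-Hochberg adjustment over all features, limma called 0 of the 6 genes and 0 of the 34915 features (0%), while 4227 features (12.1%) had an unadjusted p under 0.05. Without DNPT replicate 1, all DNPT arrays lay on slide 2 and all vehicle arrays on slide 1. Treatment and slide cannot be told apart in that setting, where limma called 623 features after adjustment. Without vehicle replicate 2 it called 3, and none of the 6 genes was among either set. The smallest adjusted p of the 6 under any of 20 alternatives was 0.0574 (Prss8, limma without DNPT replicate 1). The median difference was 0.45 over the 6 genes and 0.01 over all features. In bulk cortex, more cells of a type and more RNA per cell cannot be told apart.

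**Figure D1:**
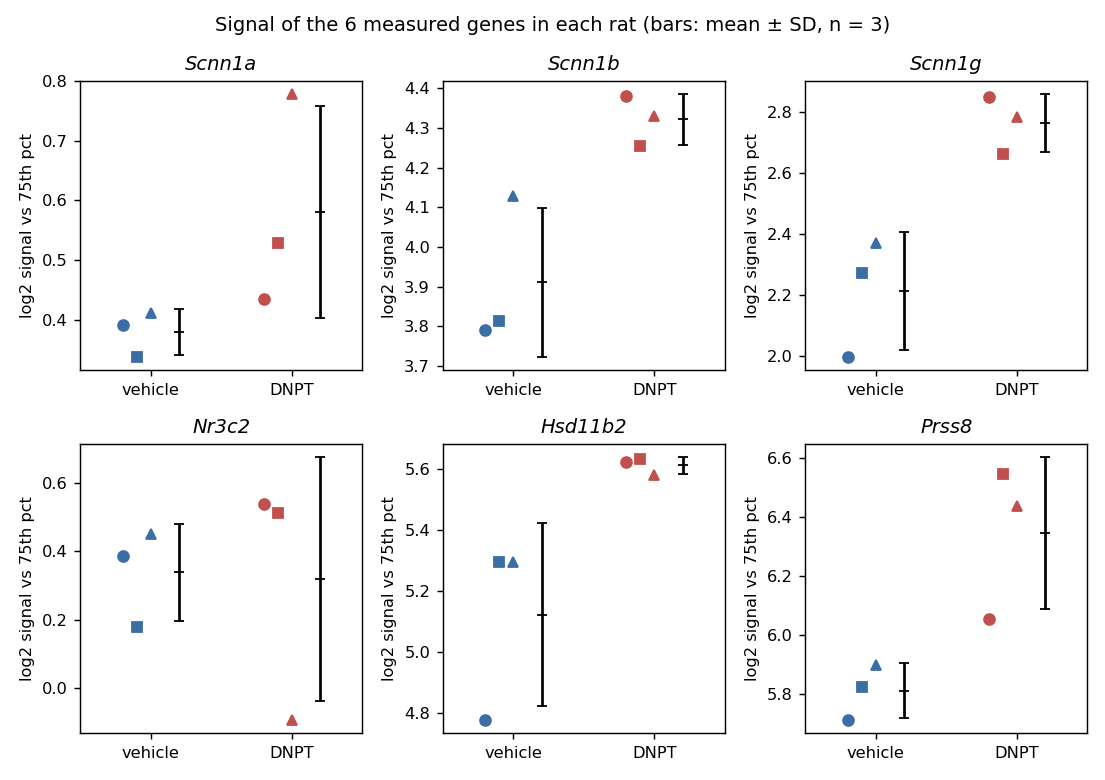
Log2 signal, with 0 at the array's 75th percentile (y axis, own scale per panel) of the 6 measured genes in the 3 vehicle rats (blue) and 3 DNPT rats (red); circles, squares and triangles are replicates 1, 2 and 3, and bars are the mean ± SD. All 3 DNPT rats lie above all 3 vehicle rats for Scnn1a, Scnn1b, Scnn1g, Hsd11b2 and Prss8, while Nr3c2 overlaps.

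The gamma subunit had the largest difference among the channel genes. Scnn1g was at 2.00, 2.27 and 2.37 in vehicle replicates 1 to 3 and at 2.85, 2.66 and 2.78 in DNPT replicates 1 to 3. The lowest DNPT rat was thus above the highest vehicle rat, and the rat on slide 1 was the highest of all. Group means were 2.76 ± 0.09 in DNPT and 2.21 ± 0.19 in vehicle rats (SD, n = 3), a difference of 0.55 (SE 0.12, 95% interval 0.24 to 0.86) or 1.46-fold (limma, unadjusted p = 0.00489, adjusted p = 0.334). Within slide 1 the value of DNPT replicate 1, a single rat, was 0.63 above the vehicle mean. Scnn1g, like Hsd11b2 and Prss8 below, was measured by 1 probe.

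The beta subunit followed the same order of groups. Scnn1b was at 3.79, 3.81 and 4.13 in the vehicle rats and at 4.38, 4.25 and 4.33 in the DNPT rats. Vehicle replicate 3 stood above the other vehicle rats, and the DNPT rats lay close together. The difference was 0.41 (SE 0.12, 95% interval 0.12 to 0.70), or 1.33-fold (limma, unadjusted p = 0.0140, adjusted p = 0.374). Within slide 1 the value of DNPT replicate 1, a single rat, was 0.47 above the vehicle mean. A second, dimmer Scnn1b probe gave 1.13, 1.26 and 1.44 in vehicle and 1.63, 1.36 and 1.68 in DNPT rats, where DNPT replicate 2 lay below vehicle replicate 3. Its difference was 0.28 (SE 0.13, limma over all probes, unadjusted p = 0.0744).

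The alpha subunit had a smaller difference. Scnn1a, the subunit needed for the channel to reach the membrane, was at 0.39, 0.34 and 0.41 in the vehicle rats and at 0.43, 0.53 and 0.78 in the DNPT rats. The groups did not overlap, but DNPT replicate 1 was only just above vehicle replicate 3 and DNPT replicate 3 stood apart. The difference was 0.20 (SE 0.11, 95% interval -0.07 to 0.48), and the test was not passed (limma, unadjusted p = 0.124, adjusted p = 0.480). It was 0.10 without DNPT replicate 3, and 0.06 within slide 1. A dimmer Scnn1a probe, between -3.80 and -3.44 in vehicle and between -3.54 and -3.12 in DNPT rats, had a difference of 0.32 (SE 0.15, limma over all probes, unadjusted p = 0.0827) with overlap.

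Whether the subunits differed from each other in their shift was tested on the within-array differences of their log2 signals. The shift of Scnn1g exceeded that of Scnn1a by 0.35, and relative to the vehicle mean this excess was 0.58, 0.30 and 0.17 in DNPT replicates 1 to 3 and -0.23, 0.10 and 0.13 in vehicle replicates 1 to 3. The two-sided exact permutation test gave p = 0.1, the smallest that 3 against 3 allows (0.3 after adjustment over the 3 pairs). Scnn1b exceeded Scnn1a by 0.21 (exact permutation p = 0.2, adjusted p = 0.3), and Scnn1g exceeded Scnn1b by 0.14 (exact permutation p = 0.3, adjusted p = 0.3). A difference in shift between the subunits was not shown by this test, which cannot reach p under 0.05 with 3 rats a group.

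For the mineralocorticoid receptor gene the groups overlapped. Nr3c2 was at 0.39, 0.18 and 0.45 in the vehicle rats and at 0.54, 0.51 and -0.09 in the DNPT rats. Of the DNPT rats, 2 lay above every vehicle rat and DNPT replicate 3 lay below every vehicle rat. The difference was -0.02 (SE 0.20, 95% interval -0.51 to 0.47; limma, unadjusted p = 0.926, adjusted p = 0.973), so the interval still includes a difference as large as that of Scnn1b. Without DNPT replicate 3 it was 0.19 (limma, unadjusted p = 0.178), and within slide 1 it was 0.20, which turns its direction. A second Nr3c2 probe was much dimmer, between -5.00 and -4.58 in vehicle and between -5.28 and -4.71 in DNPT rats. It was well above background on all 6 arrays and had a difference of -0.17 (SE 0.19). The dimmest probe, well above background on 1 vehicle and 1 DNPT array, was not tested.

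The RNA signal of Hsd11b2, which encodes the enzyme that protects the receptor, was higher in DNPT rats. Hsd11b2 was at 4.78, 5.30 and 5.30 in the vehicle rats and at 5.62, 5.63 and 5.58 in the DNPT rats. The DNPT rats were nearly equal (SD 0.03), and vehicle replicate 1 was low against the other vehicle rats (group SD 0.30). The difference was 0.49 (SE 0.16, 95% interval 0.09 to 0.88), or 1.40-fold (limma, unadjusted p = 0.0233, adjusted p = 0.393). It was 0.32 without vehicle replicate 1 (limma, unadjusted p = 0.0186). Within slide 1 the value of DNPT replicate 1, a single rat, was 0.50 above the vehicle mean.

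The RNA signal of Prss8, which encodes the activating protease, was also higher, mainly in the rats of slide 2. Prss8 was at 5.71, 5.82 and 5.90 in the vehicle rats and at 6.05, 6.55 and 6.43 in the DNPT rats. DNPT replicate 1 lay only slightly above the highest vehicle rat, and the rats of slide 2 stood well above it. The difference was 0.54 (SE 0.15, 95% interval 0.17 to 0.90), or 1.45-fold (limma, unadjusted p = 0.0122, adjusted p = 0.364). Within slide 1 it was 0.24, which rests on DNPT replicate 1 alone, and the part of slide in the larger value was not tested.

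**Figure D2:**
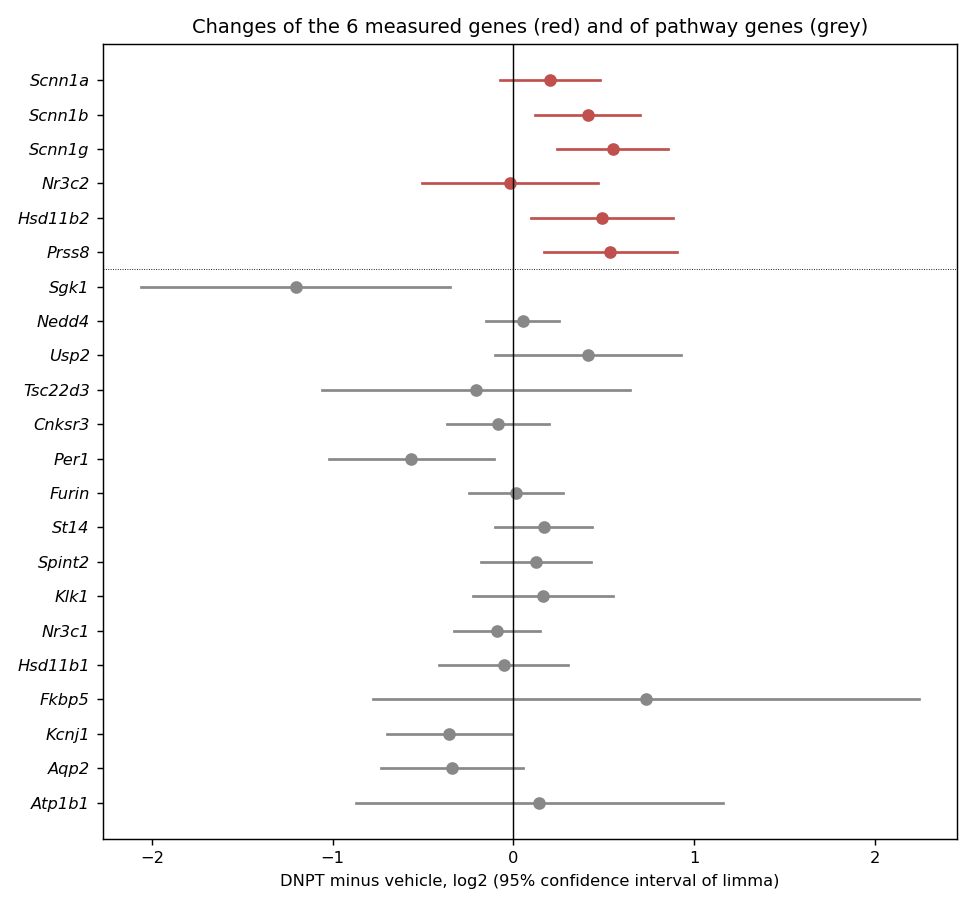
Differences between DNPT and vehicle rats (x axis, log2) with the 95% confidence interval of limma (lines) for the 6 measured genes (red) and other genes of the same pathway (grey), n = 3 rats per group. The intervals of Scnn1b, Scnn1g, Hsd11b2 and Prss8 lie above 0, those of Scnn1a and Nr3c2 include 0, and those of Sgk1, Per1 and Kcnj1 lie below 0. The grey genes are a selection. Usp10, Ndrg2 and Aqp4, whose intervals also lie above 0, are not drawn.

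Over the 6 arrays the gamma and beta subunits ran together (Pearson r = 0.95), as did Scnn1g and Hsd11b2 (r = 0.95) and Scnn1b and Hsd11b2 (r = 0.86). Because the groups of these genes do not overlap, such values mostly restate the group difference, and the arrays also share slide and scaling. With the group means removed, r was 0.78 for Scnn1b with Scnn1g, 0.85 for Scnn1g with Hsd11b2 and 0.51 for Scnn1b with Hsd11b2. It was -0.0044 for Prss8 with Scnn1b and -0.06 for Prss8 with Scnn1g. These are descriptions of 6 arrays.

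Among 12676 named genes with values on all 6 arrays, those most like Scnn1g by Pearson r were Tinag (r = 0.998), Slc2a9 (r = 0.996) and Dynlt1 (r = 0.995). Those most like Scnn1b were Upf3a (r = 0.996), Ssbp4 (r = 0.994) and Hist3h2ba (r = 0.993). For Scnn1a they were Impdh2, Hpn and Apex1 (r = 0.987 to 0.992), for Hsd11b2 Slc39a2, Bnip3 and Trappc10 (r = 0.986 to 0.990), for Prss8 Ube2r2, Tada3 and Mrps30 (r = 0.995 to 0.999), and for Nr3c2 Ube2d1, Zbtb11 and Atp6v1g2 (r = 0.982 to 0.993). With 6 arrays such values are common: between 23 genes (Nr3c2) and 270 genes (Prss8) had an r over 0.95 with a member.

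The genes beside this pair on chromosome 1 gave smaller differences. Cog7, the next gene after Scnn1b, had a difference of 0.08 (SE 0.09), Gga2 beyond it -0.06 (SE 0.42) and Ears2 0.21 (SE 0.18). Usp31, before Scnn1g, was at -0.16 (SE 0.17). The groups overlapped for each of these 4 neighbours, and the contrast with the subunit genes was not tested.

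**Figure D3:**
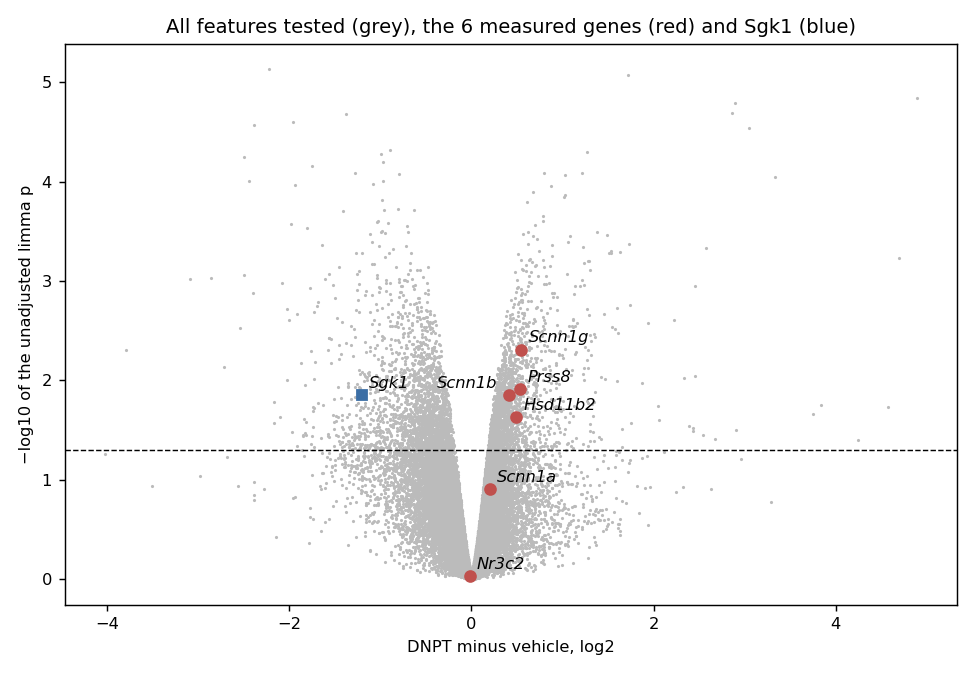
Difference between DNPT and vehicle rats (x axis, log2) against −log10 of the unadjusted p from the limma fit (y axis) for the 34915 features tested (grey points), the 6 measured genes (red circles) and Sgk1 (blue square). The dashed line marks the 0.05 threshold, Scnn1b, Scnn1g, Hsd11b2 and Prss8 lie above the line on the higher side, and many features of both directions lie further out.

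The regulators of channel turnover gave differences of both signs. Of 17 genes tested for trafficking and ubiquitin control of the channel, 9 had positive and 8 negative differences (median 0.01, against 0.01 over all features), and at an unadjusted p under 0.05 (limma) 1 was higher and 1 lower (5.95% and 6.16% of all features); 0 passed after adjustment over all features. The lower gene was Sgk1, the aldosterone-induced kinase that protects the channel from Nedd4l. Sgk1 was at 3.38, 3.31 and 3.59 in the vehicle rats and at 1.42, 2.61 and 2.63 in the DNPT rats, all below every vehicle rat, with DNPT replicate 1 lowest. Its difference was -1.20 (SE 0.35), or 2.30-fold lower (limma, unadjusted p = 0.0139, adjusted p = 0.373), and within slide 1 it was -2.00.

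Other regulators gave smaller differences. Nedd4, the relative of Nedd4l, was at 0.05 (SE 0.08) with overlap. Usp2, a deubiquitinase that acts on the channel, was at 2.65, 2.58 and 3.24 in DNPT and 2.50, 2.19 and 2.54 in vehicle rats (limma, unadjusted p = 0.0961), without overlap. Usp10, another deubiquitinase, was the gene that was higher (0.25, SE 0.08, limma, unadjusted p = 0.0207) and was chosen after its values were seen. Tsc22d3, the glucocorticoid-induced leucine zipper, was at -0.21 (SE 0.35) and the scaffold Cnksr3 at -0.09 (SE 0.11). The 14-3-3 proteins Ywhae (0.09, SE 0.08) and Ywhab (0.14, SE 0.10), the brightest of the list, lay near 0.

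Genes known as aldosterone-induced split. Of 12 tested, 3 lay higher and 3 lower without overlap (11.9% and 8.32% of all features), and at an unadjusted p under 0.05 (limma) 1 was higher and 2 lower (5.95% and 6.16% of all features); 0 passed after adjustment. The lower ones were Sgk1 and Per1, a clock repressor that aldosterone induces and that is known to act on Scnn1a. Per1 was at -1.49, -1.85 and -1.77 in the vehicle rats and at -2.59, -2.23 and -1.99 in the DNPT rats, a difference of -0.57 (SE 0.19; limma, unadjusted p = 0.0233, adjusted p = 0.393) and -0.89 within slide 1. Ndrg2, chosen after its values were seen, was higher at 0.47 (SE 0.15; limma, unadjusted p = 0.0216) and 0.24 within slide 1. Fkbp5, a chaperone induced by steroid receptors, ranged from 1.35 to 3.69 in the DNPT rats and from 1.33 to 2.19 in the vehicle rats, and the difference of 0.73 (SE 0.61) was within that spread. The list's median was 0.10, but -0.23 in DNPT replicate 1 and 0.21 and 0.29 in replicates 2 and 3.

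Genes that act with the mineralocorticoid receptor or on its ligands gave differences in both directions. Of 13 tested, 5 had positive and 8 negative differences (median -0.03). None lay apart from the vehicle rats (20.2% of all features did). None reached an unadjusted p under 0.05 (limma, 12.1% of all features). Nr3c1, the glucocorticoid receptor, was at -0.09 (SE 0.10), Hsd11b1, the enzyme that regenerates corticosterone, at -0.05 (SE 0.14), and the receptor chaperone Hsp90aa1 at -0.24 (SE 0.16).

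Other proteases and protease inhibitors of the channel had 10 of 12 positive differences (median 0.15), where 51.9% of all features were positive. None reached an unadjusted p under 0.05 (limma, 12.1% of all features), and 0 passed after adjustment. Furin, which cleaves the alpha and gamma subunits, was at 0.01 (SE 0.10), St14, which activates prostasin, at 0.17 (SE 0.11), and the inhibitor Spint2 at 0.13 (SE 0.12). The bright members Klk1, a kallikrein of the connecting tubule, and Ctsb, a lysosomal protease, were at 0.16 (SE 0.16) and 0.09 (SE 0.13). The median was 0.05 after quantile normalization and 0.04 after cyclic loess.

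Other transport genes of principal cells, the collecting duct cells that carry the channel, gave differences in both directions. Of 10 tested, 5 had positive and 5 negative differences (median 0.05). In bulk cortex these signals cannot be assigned to principal cells alone. Kcnj1, the apical potassium channel ROMK, was at 0.87, 0.85 and 0.97 in the vehicle rats and lower in all DNPT rats, at 0.77, 0.58 and 0.29 (difference -0.35, SE 0.14; limma, unadjusted p = 0.0458, adjusted p = 0.410), and the difference was -0.13 within slide 1. Aqp2, the vasopressin-regulated water channel, was at -0.34 (SE 0.16), with overlap. Atp1b1, a beta subunit of the sodium pump, was at 0.14 (SE 0.41) and did not pass. Aqp4, a basolateral water channel chosen after its values were seen, was higher at 0.61 (SE 0.18; limma, unadjusted p = 0.0167) and 0.97 within slide 1.

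**Figure D4:**
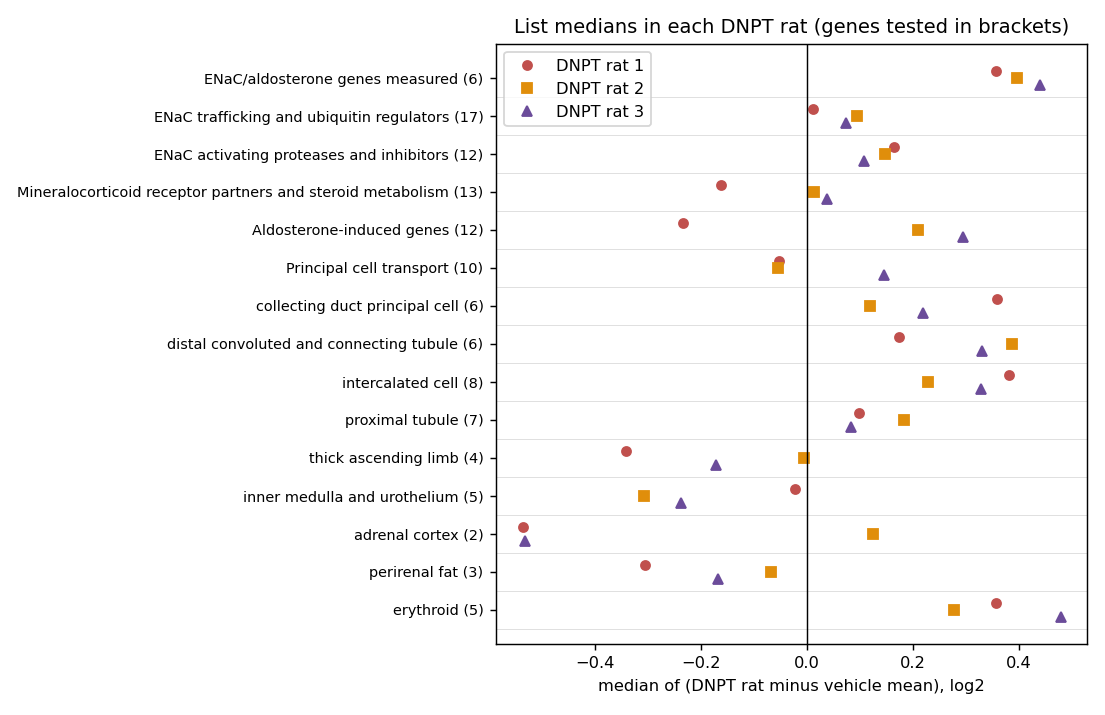
Median difference of each DNPT rat from the vehicle mean (x axis, log2) for the 6 measured genes, 5 pathway lists and 9 cell marker lists (rows, number of genes tested in brackets); circles, squares and triangles are DNPT rats 1, 2 and 3. The 6 measured genes have medians of 0.36, 0.40 and 0.44, and the intercalated cell, distal tubule, principal cell, proximal tubule and erythroid markers, the proteases and inhibitors and the trafficking regulators also lie above 0 in all 3 rats.

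Markers of the cells that carry the channel were present, with more positive than negative differences in each list (51.9% positive over all features). The principal cell markers Aqp2, Aqp3, Aqp4, Avpr2, Gata3 and Elf5 were all tested, 4 of 6 with positive differences (median 0.15). The 2 negative ones were Aqp2, the brightest, at -0.34 (SE 0.16), and Aqp3 at -0.00037 (SE 0.24). At an unadjusted p under 0.05 (limma), 2 were higher and 0 lower (5.95% and 6.16% of all features). The higher ones were Elf5 at 0.65 (SE 0.15) and Aqp4 at 0.61 (SE 0.18), both without overlap and named after their values were seen. The list's summed linear signal was 135 to 143 times the 75th percentile in vehicle and 100 to 144 times in DNPT rats. Aqp2 weighed most in this sum. Of 6 distal convoluted and connecting tubule markers, 5 had positive differences (median 0.32), among them Calb1 at 0.64 (SE 0.22) and S100g at 0.46 (SE 0.11), both calcium-binding proteins named after their values were seen. The negative one was Slc12a3, at -0.11 (SE 0.16). Of these 6, 4 were higher and 0 lower at an unadjusted p under 0.05 (limma), and 0 passed after adjustment. The list's summed signal was 181 to 208 in vehicle and 191 to 239 in DNPT rats. Most of this sum came from Klk1, which was at 0.16 (SE 0.16) with overlap. Pvalb was not well above background on any array. All 8 markers of intercalated cells, a separate cell type listed for comparison, had positive differences (median 0.34), 3 of them at an unadjusted p under 0.05 (limma). Their summed signals were 128 to 167 in vehicle and 170 to 191 in DNPT rats. The part of these cell markers in the differences of the channel genes was not tested.

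Proximal tubule markers had positive differences in 7 of 7 (median 0.09, summed signal 1303 to 1469 in vehicle and 1465 to 1722 in DNPT rats), and thick ascending limb markers negative ones in 4 of 4 (median -0.18, 278 to 340 and 235 to 326). Erythroid markers had positive differences in 5 of 5 (median 0.36, 400 to 497 and 529 to 595). At an unadjusted p under 0.05 (limma), 4 erythroid and 1 proximal tubule markers were higher (5.95% of all features). At that threshold 0 thick ascending limb markers were lower (6.16% of all features). The 5 inner medulla and urothelium markers tested had negative differences (median -0.21, summed signal 0.715 to 0.775 and 0.630 to 0.670), and Upk2 was not well above background on any array. Some markers of tissue next to the cortex gave signal. Of 7 adrenal cortex markers, Cyp11b1, the aldosterone synthase gene Cyp11b2, Nr5a1 and Mc2r were not well above background on any array. The 2 tested summed to 0.351 to 0.407 in vehicle and 0.285 to 0.373 in DNPT rats. Of these, Cyp21a1 was well above background on all 6 arrays (mean signal -1.61). The 3 perirenal fat markers tested summed to 0.822 to 1.12 and 0.860 to 0.954, and Lep was not well above background on any array. Adipoq, the brightest of them, was well above background on all 6 arrays (mean signal -0.37).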

How the data were processed

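Per the labels' protocols, total RNA was amplified to Cy3-labelled cRNA. Feature Extraction 10.7 was used for the scans, per the submitters' processing notes. The deposited scanner files hold an intensity per spot, background-subtracted per the file headers. The deposited value table is a ratio of that intensity to a constant per array (100% of probes with a value over 1 within 0.5%). The 113 values marked as non-uniform or population outliers, and all control spots, were dropped.

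Each array's 75th percentile was subtracted from the log2 intensity. Probes were kept if well above background on 3 or more of 6 arrays with 2 or more values per group (44305 probes). Accessions without versions named them through a GRCr8 RefSeq gene table (28206 probes had 1 gene, 0 several, 33331 none). The brightest kept probe stood for its gene, giving 34915 features. The model was limma (3.58.1, R 4.3.3, lmFit, then eBayes) with treatment as its only term. Its two-sided p-values set the group difference against the spread within groups, with variances moderated over all features. Among the DNPT rats that spread also holds any difference between the slides. The script was tested on simulated data.

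The members and the gene lists were chosen with earlier results of these data known. Named genes were the members, 18 listed pathway genes (Fxyd4, one of them, had no matched probe), the 2 brightest genes of a pathway list where none passed, and the 3 genes most like each member; others are marked in the text. Some items that this rule names are not reported here. Promoter motifs were chosen after seeing the values. The replicate numbers did not pair the rats. Alternatives covered scaling (quantile, median, cyclic loess), normexp background correction (offset 50), the value table, the filter, the choice of probe, the variance model, sample weights, slide, the replicate block and leaving out each rat. Python 3.11.15 with pandas 2.3.3 and matplotlib 3.10.9 served for tables and plots.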

Additional observations from a re-analysis of the deposited data

How the results depend on the processing

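Under 20 alternatives, Scnn1a, Scnn1b, Scnn1g, Hsd11b2 and Prss8 kept a positive difference and none passed after adjustment over all features; differences ran from 0.06 to 0.27 for Scnn1a, 0.33 to 0.52 for Scnn1b, 0.44 to 0.63 for Scnn1g, 0.32 to 0.58 for Hsd11b2 and 0.24 to 0.68 for Prss8. Scnn1g had an unadjusted limma p under 0.05 in all 20, Scnn1b and Prss8 in 18 each, Hsd11b2 in 15 and Scnn1a in 0. The number of the 6 genes at that threshold was 2 with slide as a block and 1 on slide 1 alone (both rest on DNPT replicate 1 alone), and 3 to 4 with a rat left out. Nr3c2, at -0.02, turned to 0.0023 with median scaling, 0.0093 with array weights and 0.20 with slide as a block or on slide 1 alone, and ran from -0.13 to 0.19 with a rat left out, positive without vehicle replicate 1 or 3 or DNPT replicate 3.

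Across all features, limma called 0 after adjustment, but 5 with normexp background correction, 1 with slide as a block and 0 to 623 with a rat left out, the highest without DNPT replicate 1; at an unadjusted p under 0.05 the count ran to 2393 with slide as a block and 8737 with no filter, against 4227. With a rat left out this count was 2541 without vehicle replicate 2 and 7281 without DNPT replicate 1. In the latter setting treatment and slide cannot be told apart. The replicate block left the 4 genes at an unadjusted p under 0.05 and called 0 features; same-numbered rats did not deviate together (correlations -0.177, -0.0593 and -0.179), and 0 of 6 rats were closest to their own number. Quantile normalization lowered Prss8 to 0.43 and Hsd11b2 to 0.39. The highest differences of Prss8 (0.68) and Scnn1a (0.27) were those without DNPT replicate 1.

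Some list medians moved by more than 1 SD of the medians of the 3 DNPT rats. Trafficking regulators went from 0.01 to -0.041 with normexp. Proteases and inhibitors went from 0.15 to 0.054 (quantile), 0.040 (cyclic loess), 0.074 (normexp) and 0.083 (mean of a gene's probes), and ran from 0.089 to 0.16 with a rat left out. Receptor partners went from -0.03 to -0.16 and aldosterone-induced genes from 0.10 to -0.23, each with slide as a block and on slide 1 alone, where the value is the median of DNPT replicate 1. Principal cell transport ran from -0.11 (without DNPT replicate 3) to 0.082 with a rat left out. The cause of the moves under other scalings and probe rules was not tested.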

Other observations

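The sodium pump beta subunit Atp1b1 and the protease inhibitor Spint1, both measured by 1 probe, were low in the same pair of rats across the groups. Atp1b1 was at 6.98 in vehicle replicate 3 and 7.17 in DNPT replicate 1, and between 8.05 and 8.19 in the other 4 rats. Spint1 was at 0.09 and 0.35 in those 2 rats and between 0.98 and 1.24 in the others. Of the 34915 features tested, 535 lay at least 0.5 below the other 4 rats in both of them. Among the 15 pairs of rats this count was higher only for DNPT replicates 2 and 3 (1002), which shared a treatment and slide 2, and was at most 126 for the other 13. None of the 6 genes of the sodium channel pathway was among these features. The cause was not tested.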
